A study of Mus musculus with 27 samples.

Results

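CBLB502 given alone, without radiation, was compared with no treatment in mouse intestine. The comparison holds 6 of the study's 27 RNA-seq libraries, chosen by their labels, with 3 libraries from CBLB502 mice and 3 from control mice. The treated mice were wild-type male C57BL/6 mice that received 0.2 mg/kg CBLB502 by intraperitoneal injection and were sampled at 24 h. The control mice were wild-type male C57BL/6 mice labelled as having had no treatment, and no sampling time is given for them. The study's design text puts all mice at 6 to 8 weeks of age, with 10 mice in each of 7 groups, while the labels give 9 groups of 3 libraries. It names PBS as the control for CBLB502, but no library here is labelled as PBS-injected, so the injection and CBLB502 itself cannot be told apart. Whether a library is 1 mouse or a pool is not stated, so p-values measure the spread between libraries, which may be partly technical. The other 21 libraries came from irradiated mice, with or without CBLB502. They entered the fit to share 1 estimate of the spread, and the 12 of them taken at 24 h are compared at the end.

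CBLB502 (entolimod) is a shortened bacterial flagellin made as a radiation protectant. Flagellin is read outside cells by the receptor TLR5, which signals through the adaptor MyD88 to NF-kB, and inside cells by NAIP proteins, which activate the NLRC4 inflammasome. In the gut, flagellin sensing is known to induce antimicrobial lectins of the Reg3 family and fucose on the epithelial surface.

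At 24 h after CBLB502 alone, the intestine had 17.0- to 24.6-fold higher mean levels of Fut2, Gml and Gml2. Fut2 fucosylates the epithelial surface, and Gml and Gml2 encode GPI-anchored Ly6-like proteins. The antimicrobial lectins Reg3b and Reg3g were 3.99- and 3.32-fold higher, and 5 of 10 iron-handling genes and 8 of 28 genes of sterol and fatty acid synthesis rose. Of 9 MHC class II genes 6 fell, among them H2-Aa, whose mean in control mice was 5.32-fold that in CBLB502 mice. Some genes of sterol export, xenobiotic metabolism, nutrient uptake and complement fell too, and edgeR called 0 of 15 genes of the NF-kB list. Over all 11118 genes tested 2.48% rose and 3.26% fell. Many of these calls were lost when 1 library was left out. In the 6 compared libraries alone, 0 of 8 sterol, 1 of 5 iron and 3 of 6 class II calls were kept. Reg3b and Reg3g were not called there.

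The 6 libraries held 60.6 to 83.7 M counts with CBLB502 and 75.5 to 86.9 M counts in control. Levels are given below as CPM, the counts of a gene scaled to a fixed library total, after TMM scaling, which corrects that total for the genes that dominate it. Mitochondrial genes took 9.67% to 24.6% of the counts with CBLB502 and 11.8% to 17.8% in control, with the highest share in CBLB502 replicate 3. No pair of replicates agreed within counting error, since chi-square divided by its degrees of freedom was 135 to 872 between CBLB502 libraries and 102 to 315 between control libraries. The tissue label was checked on marker genes. The 8 enterocyte markers summed to 53870 to 65660 CPM with CBLB502 and 62790 to 75980 CPM in control, while the 5 fibroblast markers summed to at most 0.96 and 2.79 CPM. The ileal genes Fabp6 and Fgf15 had no count in any of the 6 libraries, and the proximal gene Gata4 had 130.4, 129.7 and 104 CPM with CBLB502 and 142, 112 and 112 CPM in control.

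Of 11118 genes tested, 638 (5.74%) were called at an adjusted p under 0.05, of which 276 (2.48%) rose with CBLB502 and 362 (3.26%) fell. The fold change was at least 2 for 148 of the risen and 156 of the fallen genes. The median log2 fold change was 1.05 over the risen genes, -0.90 over the fallen genes and 0.0044 over all genes tested. The 3 CBLB502 libraries lay wholly above or below the 3 control libraries for 2434 genes (21.9%), with 1164 higher (10.5%) and 1270 lower (11.4%). These included 257 of the 276 risen and 350 of the 362 fallen genes. The number of calls depended on single libraries. Without CBLB502 replicate 1, 2 or 3 it was 351, 189 or 764, and without control replicate 1, 2 or 3 it was 176, 286 or 779. In every one of these 6 fits 122 of the 638 genes were called, 37 higher and 85 lower.

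**Figure D1:**
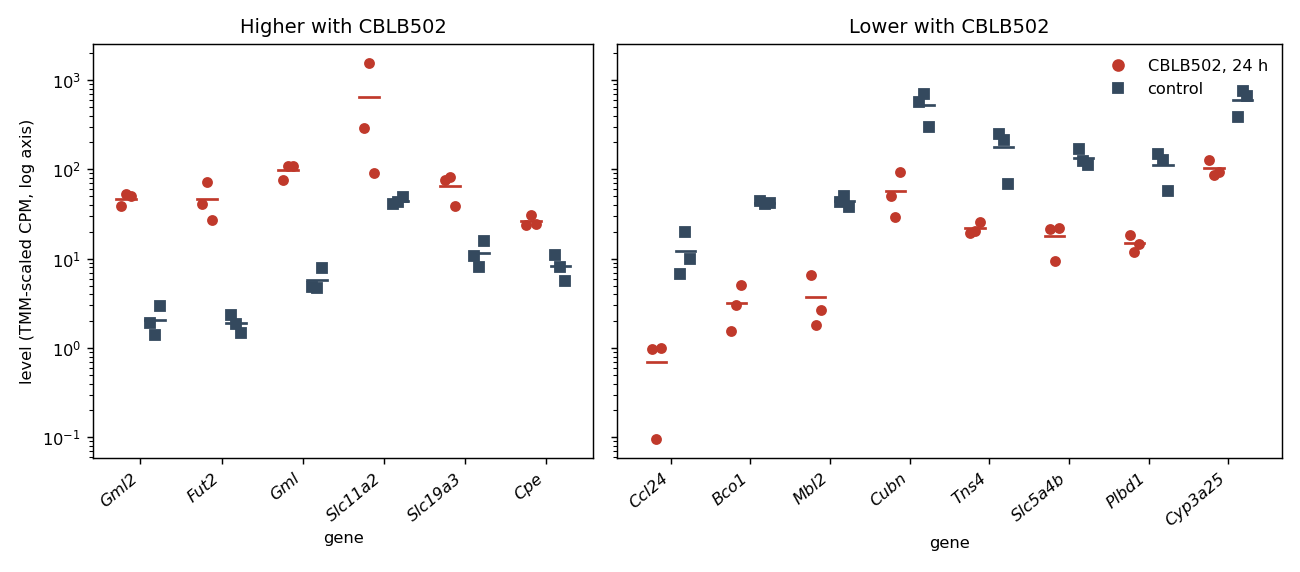
Level of 14 genes in each library (TMM-scaled CPM, log axis), with CBLB502 as circles, control as squares and bars at group means. All 14 were called in each of the 6 fits that leave out 1 library, and the CBLB502 libraries of each gene lie wholly above (left panel) or wholly below (right panel) the control libraries.

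Tlr5, the surface receptor of flagellin, was too low to be tested, with no count in the 3 CBLB502 libraries and 0.324, 0.0937 and 0 CPM in the control libraries, so its response was not measurable here. Of 22 tested genes of flagellin sensing and its adaptors, 0 were called higher and 1 lower, with a median log2 fold change of -0.02. The gene called was Naip5, a cytosolic flagellin receptor, at 60.8, 57.0 and 72.1 CPM with CBLB502, against 208, 150.2 and 162 CPM in control (log2 fold change -1.46 ± 0.24 SE, adjusted p = 0.00178). Every CBLB502 library was below every control library, and Naip5 was called in all 6 fits that leave out 1 library. Naip1, which senses the needle of bacterial secretion systems, had 42.2, 44.9 and 31.0 CPM with CBLB502 and 79.0, 67.6 and 42.4 CPM in control (log2 fold change -0.68 ± 0.28 SE, adjusted p = 0.153). Nlrc4, the inflammasome core that NAIP proteins activate, had 76.5, 86.4 and 79.7 CPM with CBLB502 and 55.2, 73.5 and 65.0 CPM in control (log2 fold change 0.32 ± 0.11 SE, adjusted p = 0.0949). Neither gene was called, although the groups did not overlap for Nlrc4. The Naip genes are close copies of each other and how shared reads were assigned is not given in the sources used here, so the split between Naip5 and its copies is uncertain.

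NF-kB is the transcription factor family that TLR5 activates. Of its 15 tested subunits, inhibitors and early targets 0 were called by edgeR, 1 had an unadjusted p under 0.05, and DESeq2 called 1 lower. The feedback inhibitor Nfkbia had 54.5, 60.1 and 56.7 CPM with CBLB502 and 61.7, 79.8 and 65.4 CPM in control (log2 fold change -0.27 ± 0.23 SE, adjusted p = 0.547). The deubiquitinase Tnfaip3, another feedback inhibitor, had 16.7, 37.7 and 48.7 CPM with CBLB502 and 70.0, 28.5 and 15.4 CPM in control (log2 fold change -0.14 ± 0.63 SE, adjusted p = 0.93). The groups differed by less than the spread between libraries for Tnfaip3, and for Nfkbia the CBLB502 libraries were lower by an amount that did not pass the test. The NF-kB-dependent cytokine genes Il6 and Csf3 had no count in the CBLB502 libraries, and in control Il6 had 0.0535 CPM in replicate 2 and no count elsewhere. The neutrophil chemokine Cxcl1 was likewise too low to be tested, at 0.119, 0.271 and 0.0842 CPM with CBLB502 and 0.185, 0.375 and 0.492 CPM in control.

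Of 15 tested chemokines, 1 rose and 1 fell. Ccl20, which draws CCR6-bearing dendritic and lymphoid cells to the epithelium, had 3.86, 10.3 and 3.05 CPM with CBLB502, against 1.19, 1.20 and 1.36 CPM in control (log2 fold change 2.20 ± 0.60 SE, adjusted p = 0.0343). All CBLB502 libraries were above all control libraries, and replicate 2 was the highest. Without CBLB502 replicate 2 its adjusted p was 0.217, and without control replicate 1, 2 or 3 it was 0.125, 0.0978 or 0.0609. Ccl24, an eosinophil chemokine, had 0.970, 0.0948 and 1.01 CPM with CBLB502, against 6.82, 19.7 and 9.91 CPM in control (log2 fold change -4.15 ± 0.68 SE, adjusted p = 0.00152). The highest CBLB502 library stayed below the lowest control library, and its adjusted p was at most 0.00832 with any 1 library left out. Il15, an epithelial cytokine that sustains intraepithelial lymphocytes, was the only 1 of 7 tested cytokines called, at 10.9, 17.0 and 16.2 CPM with CBLB502, against 26.9, 27.9 and 31.0 CPM in control (log2 fold change -0.96 ± 0.26 SE, adjusted p = 0.0343). The groups were apart by a narrow margin, and the adjusted p ran from 0.0448 to 0.143 in the 6 fits that leave out 1 library, above 0.05 without CBLB502 replicate 1 or 2 and without any of the controls.

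Lectins of the Reg family are secreted into the gut lumen, where Reg3 lectins kill or repel bacteria. Of 7 tested members 3 rose and 0 fell, with a median log2 fold change of 0.72. Reg3b (chr6:78370657-78373466) had 35694, 43646 and 27615 CPM with CBLB502, against 10086, 5266 and 11429.7 CPM in control (log2 fold change 2.0 ± 0.45 SE, adjusted p = 0.0123). Reg3g (chr6:78466269-78468872), which acts on Gram-positive bacteria, had 17221, 20256 and 16833 CPM with CBLB502, against 5907, 3051 and 7417 CPM in control (log2 fold change 1.73 ± 0.46 SE, adjusted p = 0.0324). For both genes every CBLB502 library lay above every control library. Reg4, a lectin of enteroendocrine and goblet cells, had 47.8, 48.9 and 88.5 CPM with CBLB502, against 39.7, 42.2 and 30.8 CPM in control (log2 fold change 0.72 ± 0.21 SE, adjusted p = 0.0443), again with no overlap. Reg1 had 2033, 3639 and 581 CPM with CBLB502 and 69.7, 93.6 and 331 CPM in control, without overlap, but it was not called, and its libraries were widely spread (log2 fold change 3.66 ± 1.12 SE, adjusted p = 0.0574). Reg3a (log2 fold change -0.11 ± 0.32 SE, adjusted p = 0.892), Reg2 and Reg3d were not called, and Reg2 and Reg3d had under 1 CPM in every library. Of the 3 called lectins, 2, 0 and 2 were still called without CBLB502 replicate 1, 2 and 3, and 0, 0 and 2 without control replicate 1, 2 and 3. The highest adjusted p of Reg3b in these fits was 0.0649 and that of Reg3g 0.122. The Reg3 genes are close copies, so reads may have been split between them.

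Of 20 tested genes of epithelial defence 1 rose and 2 fell, with a median log2 fold change of -0.18. The gene that rose was Fut2 (chr7:45648591-45666394), the fucosyltransferase that caps intestinal glycans with fucose. It had 40.9, 71.8 and 26.8 CPM with CBLB502, against 2.33, 1.87 and 1.46 CPM in control (log2 fold change 4.62 ± 0.50 SE, adjusted p = 8.54e-05). The lowest CBLB502 library was far above the highest control library, and the adjusted p was at most 0.000809 with any 1 library left out. The 2 that fell were Cd14, the co-receptor for lipopolysaccharide, and Cyba, a subunit of NADPH oxidases. Cyba had 11.3, 8.65 and 16.7 CPM with CBLB502, against 59.5, 41.2 and 25.3 CPM in control (log2 fold change -1.78 ± 0.41 SE, adjusted p = 0.0145), and Cd14 had 3.16, 3.10 and 3.13 CPM with CBLB502, against 4.38, 6.56 and 5.53 CPM in control (log2 fold change -0.81 ± 0.18 SE, adjusted p = 0.0112). Neither gene overlapped between groups, and their adjusted p reached 0.0896 without control replicate 1 (Cyba) and 0.063 without control replicate 2 (Cd14), with both above 0.05 without CBLB502 replicate 2 (0.0852 and 0.0517) and Cyba above it without CBLB502 replicate 1 (0.0582). The acute-phase gene Saa1 (log2 fold change 2.38 ± 1.31 SE, adjusted p = 0.305), the siderophore binder Lcn2 (log2 fold change 2.05 ± 0.70 SE, adjusted p = 0.0896), the oxidase Duox2 (log2 fold change -0.91 ± 0.94 SE, adjusted p = 0.628), nitric oxide synthase Nos2 (log2 fold change -1.43 ± 1.25 SE, adjusted p = 0.553) and the antibody transporter Pigr (log2 fold change 0.21 ± 0.19 SE, adjusted p = 0.567) were not called.

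Gml and Gml2 lie side by side on chromosome 15 and start next to each other on opposite strands, Gml at chr15:74813452-74818815 and Gml2 at chr15:74819071-74834871. They were 2 of 11 tested members of the Ly6 and Gml family, a group of small GPI-anchored surface proteins, and the only ones called. Gml had 76.9, 109.8 and 109.7 CPM with CBLB502, against 4.83, 4.71 and 7.90 CPM in control (log2 fold change 4.09 ± 0.75 SE, adjusted p = 0.0034). Gml2 had 38.5, 52.8 and 49.7 CPM with CBLB502, against 1.90, 1.39 and 2.95 CPM in control (log2 fold change 4.5 ± 0.67 SE, adjusted p = 0.000556). The replicates of each group were close to each other for both genes, and each gene was called in all 6 fits that leave out 1 library. The whole family had a median log2 fold change of 0.09.

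**Figure D2:**
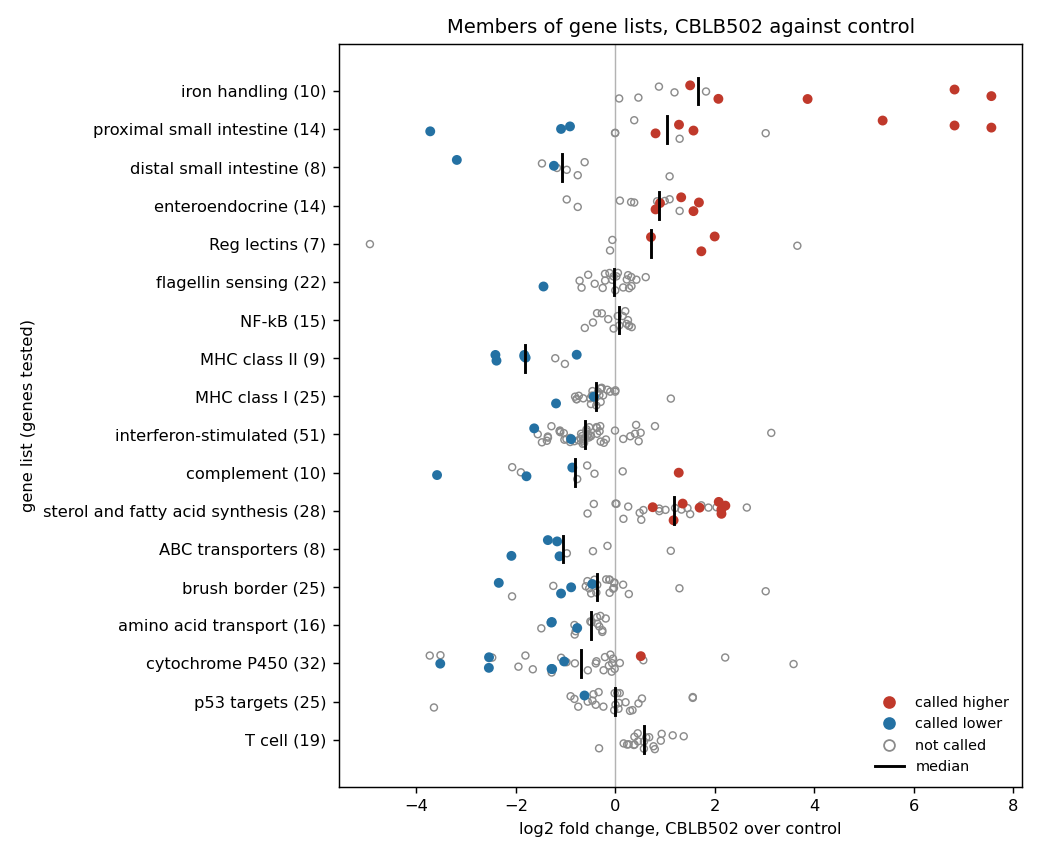
Log2 fold change, CBLB502 over control, of every tested member of 18 gene lists, with the number tested in brackets. Filled points were called higher (red) or lower (blue), open points were not called, and black bars are list medians, from -1.82 for MHC class II to 1.66 for iron handling.

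MHC class II molecules present peptides to CD4 T cells, and in the small intestine enterocytes make them as well as professional antigen-presenting cells. Of 9 tested genes of this pathway 6 fell and 0 rose, with a median log2 fold change of -1.82. H2-Aa, the alpha chain of I-A, had 298, 124 and 242 CPM with CBLB502, against 1145, 1171 and 1215 CPM in control (log2 fold change -2.41 ± 0.64 SE, adjusted p = 0.0318). H2-Eb1, the beta chain of I-E, had 72.7, 32.4 and 50.6 CPM with CBLB502, against 269.6, 269 and 277 CPM in control (log2 fold change -2.39 ± 0.53 SE, adjusted p = 0.0114). The 3 control libraries were nearly alike for both genes, while CBLB502 replicate 2 was the lowest of all. H2-Ab1, the beta chain of I-A (log2 fold change -1.83 ± 0.50 SE, adjusted p = 0.035), the invariant chain Cd74 (log2 fold change -1.80 ± 0.53 SE, adjusted p = 0.0483) and the peptide loader subunit H2-DMa (log2 fold change -1.83 ± 0.44 SE, adjusted p = 0.018) fell too. Ctss, the protease that trims the invariant chain, had 172, 208 and 169.7 CPM with CBLB502, against 352, 336 and 254 CPM in control (log2 fold change -0.78 ± 0.14 SE, adjusted p = 0.00373), and was called in all 6 fits that leave out 1 library. The other loader subunit, H2-DMb1, just missed the threshold (log2 fold change -1.82 ± 0.54 SE, adjusted p = 0.051). Ciita, the master regulator of the pathway, had 8.49, 5.0 and 2.29 CPM with CBLB502 and 7.51, 15.5 and 8.81 CPM in control, with overlap between groups (log2 fold change -1.01 ± 0.70 SE, adjusted p = 0.427). Of the 6 called genes, 3, 1 and 4 were still called without CBLB502 replicate 1, 2 and 3. Without control replicate 1, 2 and 3 it was 2, 3 and 4. H2-Aa and H2-Ab1 were each called in 1 of these 6 fits, with an adjusted p of up to 0.143 and 0.157. Cd74 was called in 0 of them, at 0.0551 to 0.198. In a fit of the 6 compared libraries alone 3 of the 6 were still called.

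Markers of other antigen-presenting cells were measured beside this. The B and plasma cell list summed to 57.8 to 76.0 CPM with CBLB502 and 113 to 335 CPM in control, and 1 of its 7 tested genes fell, Sdc1, which enterocytes express too (log2 fold change -1.11 ± 0.23 SE, adjusted p = 0.00713). Of these 7 genes 6 had a negative fold change (median log2 fold change -2.22), 5 an unadjusted p under 0.05, all lower, and DESeq2 called 2 lower. The myeloid list summed to 16.3 to 44.9 CPM with CBLB502 and 30.8 to 36.7 CPM in control, with Cd163, Mpo, Elane and Ly6g at 0 in all 6 libraries. Of its 11 tested genes 0 were called by edgeR, 2 had an unadjusted p under 0.05, and DESeq2 called 2 lower. The part of these cells in the class II result was not tested, and in bulk tissue fewer cells of a type and less RNA per cell cannot be told apart.

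The promoters of H2-Aa and H2-Eb1 are shown because class II genes are known to share a conserved promoter module whose Y box binds the factor NF-Y. The 150 bases before the start of each gene, from RefSeq on GRCm38.p6 and on the gene's own strand, are at chr17:34287824-34287973 (minus strand) for H2-Aa and chr17:34305717-34305866 (plus strand) for H2-Eb1, with the Y box CTGATTGG in capitals.
H2-Aa: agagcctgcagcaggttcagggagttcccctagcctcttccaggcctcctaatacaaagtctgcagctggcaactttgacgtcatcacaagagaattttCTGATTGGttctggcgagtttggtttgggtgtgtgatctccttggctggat
H2-Eb1: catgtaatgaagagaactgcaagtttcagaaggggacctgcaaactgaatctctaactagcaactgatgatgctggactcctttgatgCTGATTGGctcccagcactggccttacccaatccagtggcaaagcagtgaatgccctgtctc
The first base of the Y box lies 51 bases before the start of H2-Aa and 62 bases before that of H2-Eb1. Both strands of the 250 bases before the start were searched, and Cd74 was left out of the search. Of the fallen class II genes besides Cd74, 4 were found in the promoter table. CTGATTGG was present in 2 of these 4, which are H2-Aa and H2-Eb1 themselves. It was present in 1258 of 32851 promoters overall (3.83%).

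MHC class I molecules present peptides to CD8 T cells, and many of their genes respond to interferon. Of 25 tested class I genes 2 fell and 0 rose (median log2 fold change -0.38), while 3.26% of all genes tested fell. An unadjusted p under 0.05 was found for 10, all lower, and DESeq2 called 5 lower and 0 higher. Wholly below control lay 12 of the 25 and wholly above 0, against 11.4% and 10.5% of all genes tested. H2-T23, the nonclassical class I gene that encodes Qa-1, had 415, 347 and 452 CPM with CBLB502, against 987, 993 and 792 CPM in control (log2 fold change -1.19 ± 0.17 SE, adjusted p = 0.000427), with every CBLB502 library lower, and it was called in all 6 fits that leave out 1 library. Psmb10, an immunoproteasome subunit, fell slightly (log2 fold change -0.43 ± 0.13 SE, adjusted p = 0.0487) and its adjusted p was over 0.05 with any 1 library left out, at 0.0621 to 0.162. Of 51 interferon-stimulated genes 2 fell and 0 rose, and the list's median was -0.60 with 43 of 51 values negative. An unadjusted p under 0.05 was found for 18 lower genes and 1 higher gene, and DESeq2 called 11 lower and 1 higher. Of the 51, 26 lay wholly below control and 3 wholly above. Lgals3bp, a secreted galectin-3 ligand, had 176, 127 and 191 CPM with CBLB502, against 636, 493 and 400.2 CPM in control (log2 fold change -1.63 ± 0.31 SE, adjusted p = 0.00491). Oas3, a sensor of double-stranded RNA, had 108, 75.9 and 108 CPM with CBLB502, against 183, 158 and 199 CPM in control (log2 fold change -0.89 ± 0.22 SE, adjusted p = 0.023). The groups did not overlap for either, and Oas3 lost its call without CBLB502 replicate 1 or 2 or control replicate 1, at an adjusted p of 0.0509, 0.122 and 0.0779.

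Of 10 tested complement genes 3 fell and 1 rose. Mbl2, a mannose-binding lectin that starts the lectin pathway, had 6.58, 1.81 and 2.64 CPM with CBLB502, against 43.4, 50.4 and 38.3 CPM in control (log2 fold change -3.58 ± 0.64 SE, adjusted p = 0.00294). C2, which forms the classical and lectin pathway convertase, had 13.1, 10.0 and 16.6 CPM with CBLB502, against 56.1, 47.4 and 33.4 CPM in control (log2 fold change -1.79 ± 0.30 SE, adjusted p = 0.00182). Both were far below control in every CBLB502 library and were called in all 6 fits that leave out 1 library. Cfb, the alternative pathway counterpart of C2, fell too (log2 fold change -0.87 ± 0.17 SE, adjusted p = 0.00639) and reached 0.0562 without control replicate 1. The protease Cfi, which degrades C3b and C4b, had 10.3, 15.3 and 5.78 CPM with CBLB502, against 4.13, 3.43 and 5.38 CPM in control (log2 fold change 1.27 ± 0.29 SE, adjusted p = 0.0144), and its adjusted p was 0.111 without CBLB502 replicate 2, 0.0686 without control replicate 1 and 0.0697 without control replicate 2.

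Iron is taken up by the duodenum after reduction by CYBRD1, through the apical importer SLC11A2 and the basolateral exporter SLC40A1 (ferroportin). Of 10 tested iron genes 5 rose and 0 fell, with a median log2 fold change of 1.66. Slc11a2 had 293, 1559 and 91.1 CPM with CBLB502, against 41.1, 43.0 and 49.1 CPM in control (log2 fold change 3.87 ± 0.61 SE, adjusted p = 0.00107). Cybrd1 had 60.6, 483 and 29.0 CPM with CBLB502, against 0.524, 1.78 and 0.701 CPM in control (log2 fold change 7.56 ± 1.67 SE, adjusted p = 0.0115). Slc40a1 had 361, 930.0 and 67.9 CPM with CBLB502, against 2.91, 3.17 and 5.93 CPM in control (log2 fold change 6.82 ± 1.92 SE, adjusted p = 0.0397). In all of them replicate 2 was the highest and replicate 3 the lowest of the CBLB502 libraries, yet even replicate 3 was above every control library. The ferritin heavy chain Fth1 (log2 fold change 2.07 ± 0.60 SE, adjusted p = 0.0461) and Epas1, the hypoxia-inducible factor that drives iron genes in the duodenum (log2 fold change 1.5 ± 0.38 SE, adjusted p = 0.0257), rose as well. The folate and haem carrier Slc46a1 (log2 fold change 1.19 ± 0.43 SE, adjusted p = 0.109), ferritin light chain Ftl1 (log2 fold change 0.46 ± 0.20 SE, adjusted p = 0.18), haem oxygenase Hmox1 (log2 fold change 1.82 ± 0.76 SE, adjusted p = 0.164), the transferrin receptor Tfrc (log2 fold change 0.88 ± 0.54 SE, adjusted p = 0.366) and the ferroxidase Heph (log2 fold change 0.08 ± 0.13 SE, adjusted p = 0.784) were not called. Of the 5 called genes, 3, 1 and 5 were still called without CBLB502 replicate 1, 2 and 3, and 1, 2 and 3 without control replicate 1, 2 and 3. Slc11a2 was called in all of these fits with an adjusted p of at most 0.0126, and Slc40a1 reached 0.157. In a fit of the 6 compared libraries alone 1 of the 5 was still called, and Slc11a2 had an adjusted p of 0.133.

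**Figure D3:**
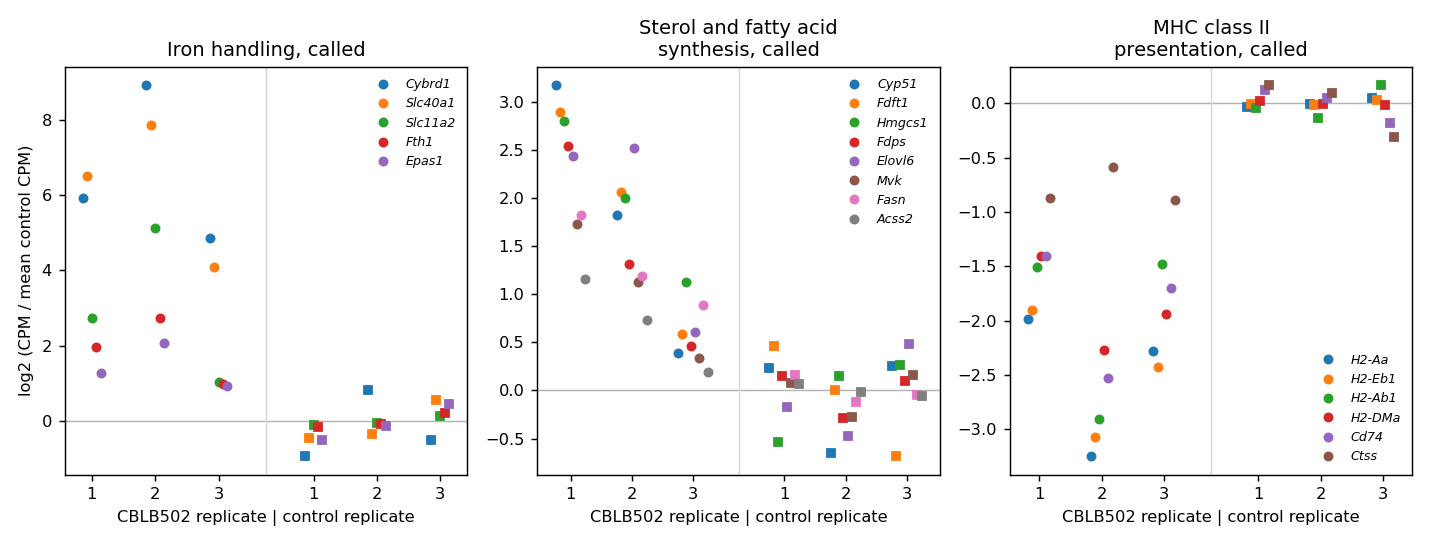
Log2 ratio of each library's CPM to the mean control CPM for the called genes of 3 lists, with CBLB502 libraries as circles on the left and control libraries as squares on the right of each panel. Iron genes are highest in CBLB502 replicate 2, most sterol and fatty acid genes are highest in CBLB502 replicate 1, and class II genes other than Ctss are lowest in CBLB502 replicate 2.

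Genes that mark position along the small intestine differed between the groups in the same libraries. Of 14 tested genes higher in the proximal intestine 6 rose and 3 fell, and of 8 tested distal genes 0 rose and 2 fell. Pdx1, the duodenal transcription factor, had 34.0, 54.4 and 8.44 CPM with CBLB502, against 0.463, 0.455 and 1.42 CPM in control (log2 fold change 5.38 ± 1.38 SE, adjusted p = 0.0267), and Onecut2, another duodenal factor, had 68.0, 65.3 and 33.9 CPM with CBLB502, against 20.02, 22.4 and 26.4 CPM in control (log2 fold change 1.28 ± 0.31 SE, adjusted p = 0.0185). Neither overlapped between groups, and CBLB502 replicate 3 was the nearest to control. Gata4, in contrast, was not called (log2 fold change -0.01 ± 0.13 SE, adjusted p = 0.99), and the proximal genes Lct (log2 fold change -1.09 ± 0.21 SE, adjusted p = 0.00459), which encodes lactase, Npc1l1 (log2 fold change -0.91 ± 0.26 SE, adjusted p = 0.0397), the cholesterol importer, and Bco1 fell. Bco1, which splits beta-carotene, had 1.57, 3.05 and 5.02 CPM with CBLB502, against 44.2, 41.4 and 41.5 CPM in control (log2 fold change -3.72 ± 0.63 SE, adjusted p = 0.00185), with control libraries nearly equal and all far above CBLB502. The distal genes that fell were Cubn, the receptor for intrinsic factor and vitamin B12, at 50.0, 29.0 and 93.0 CPM with CBLB502, against 566, 699 and 300.2 CPM in control (log2 fold change -3.19 ± 0.55 SE, adjusted p = 0.00224), and the bile acid exporter subunit Slc51a (log2 fold change -1.23 ± 0.25 SE, adjusted p = 0.00736). Every CBLB502 library was lower for both. Of the 6 risen proximal genes, 4, 2 and 5 were still called without CBLB502 replicate 1, 2 and 3, and 0, 3 and 4 without control replicate 1, 2 and 3, and Lct, Bco1 and Cubn were called in all 6.

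A mean log2 score over the 14 proximal genes was 0.83 ± 0.28 with CBLB502 and -0.67 ± 0.19 in control (SD, n = 3 each), and one over the 8 distal genes was 0.02 ± 0.48 with CBLB502 and 1.04 ± 0.55 in control. The proximal score of all CBLB502 libraries was above that of all control libraries, so position along the gut and CBLB502 cannot be fully told apart. The proximal score holds Cybrd1 and Slc40a1 themselves. With it as a covariate, an alternative chosen after seeing the data, 80 genes were called, 26 higher and 54 lower, and 54 of them were among the 638. The fitted change of Slc40a1 was then -0.05 and that of Fth1 -0.26 (adjusted p = 0.996 and 0.861), and 0 of the 5 iron calls, 2 of the 8 sterol calls and 1 of the 6 class II calls were kept. The fitted change of 7 of the 8 sterol and fatty acid genes was at least as large as without the covariate, at 2.74 for Hmgcs1 and 3.13 for Fdft1, and Elovl6 was at 0.63. The iron genes were all smaller or turned, with Slc11a2 at 2.79, and the class II genes lay between -1.18 and -0.69, with Ctss the one that was not smaller. Fut2, Gml2, Reg3g, Ccl24, Abcg5, H2-T23 and Cyp3a25 were still called. The part of position in these results was not tested further.

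Sterol and fatty acid synthesis is run in the cytosol and endoplasmic reticulum under SREBP transcription factors. Of 28 tested genes 8 rose and 0 fell, with a median log2 fold change of 1.19. The CBLB502 libraries lay wholly above control in 14 of 28 and wholly below in 2, against 10.5% and 11.4% of all genes tested. Hmgcs1, which makes HMG-CoA for the mevalonate pathway, had 326, 188 and 102 CPM with CBLB502, against 32.3, 51.9 and 56.1 CPM in control (log2 fold change 2.13 ± 0.53 SE, adjusted p = 0.0225). Cyp51, the lanosterol demethylase, had 253, 99.3 and 36.7 CPM with CBLB502, against 32.8, 17.9 and 33.3 CPM in control (log2 fold change 2.21 ± 0.60 SE, adjusted p = 0.0337). Elovl6, which lengthens saturated fatty acids, had 247, 263 and 69.5 CPM with CBLB502, against 40.6, 32.8 and 63.7 CPM in control (log2 fold change 2.08 ± 0.46 SE, adjusted p = 0.0119). CBLB502 replicate 3 was the nearest to control for each of them but stayed above it. The mevalonate genes Mvk (log2 fold change 1.17 ± 0.28 SE, adjusted p = 0.0184), Fdps (log2 fold change 1.70 ± 0.49 SE, adjusted p = 0.0459) and Fdft1 (log2 fold change 2.13 ± 0.60 SE, adjusted p = 0.0401), fatty acid synthase Fasn (log2 fold change 1.35 ± 0.40 SE, adjusted p = 0.0489) and acetyl-CoA synthetase Acss2 (log2 fold change 0.75 ± 0.21 SE, adjusted p = 0.0379) rose too. Of the 8, 1, 0 and 8 were still called without CBLB502 replicate 1, 2 and 3, and 0, 0 and 3 without control replicate 1, 2 and 3. The list summed to 1229 to 3211 CPM with CBLB502 and 1167 to 1382 CPM in control, so the summed level overlapped. In a fit of the 6 compared libraries alone 0 of the 8 were called.

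Hmgcs1 is shown as the one risen gene of this list whose promoter held a loosened form of the sterol element bound by SREBP. The 150 bases before its start are at chr13:119690201-119690350 (plus strand) on GRCm38.p6, from RefSeq, with the match to TCACNCCAC in capitals, where N is any base.
Hmgcs1: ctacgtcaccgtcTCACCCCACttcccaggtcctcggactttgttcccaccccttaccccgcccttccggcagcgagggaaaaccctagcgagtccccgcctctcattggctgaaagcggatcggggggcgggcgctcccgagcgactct
The match starts 137 bases before the gene. On both strands of the 250 bases before the start, TCACNCCAC was present in 1 of the 6 risen sterol and fatty acid genes found in the promoter table and in 346 of 32851 promoters (1.05%). The stricter form, with C as the free base and an A before the first T, was present in 0 of the 6 and in 24 of 32851 promoters (0.0731%). These matches describe letters in the window and do not show binding.

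Of 8 tested transporters of the ABC family 4 fell and 0 rose, with a median log2 fold change of -1.05. Abcg5, which with Abcg8 returns sterols to the gut lumen, had 217, 154 and 224 CPM with CBLB502, against 565, 553 and 403 CPM in control (log2 fold change -1.36 ± 0.19 SE, adjusted p = 0.000427). Abca1, which loads cholesterol onto apolipoprotein A-I, had 36.3, 30.3 and 50.5 CPM with CBLB502, against 180.0, 173 and 145 CPM in control (log2 fold change -2.09 ± 0.42 SE, adjusted p = 0.00702). All CBLB502 libraries were below all control libraries for both genes, and both were called in all 6 fits that leave out 1 library. Abcg8 (log2 fold change -1.17 ± 0.33 SE, adjusted p = 0.0401) and the drug exporter Abcb1a (log2 fold change -1.12 ± 0.28 SE, adjusted p = 0.023) also fell. Their adjusted p reached 0.176 without control replicate 1 and 0.116 without control replicate 2, and both lost the call without CBLB502 replicate 1 or 2 (Abcg8 0.101 and 0.17, Abcb1a 0.0559 and 0.0845). Abcg8 also lost it without control replicate 2 (0.127), and Abcb1a without CBLB502 replicate 3 (0.0572).

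Nr0b2 encodes SHP, a repressor induced by the bile acid receptor FXR. It had 7.93, 7.08 and 2.04 CPM with CBLB502, against no count in any control library (adjusted p = 0.00132). Against a floor of 3 counts over the control group, its mean level with CBLB502 was 391-fold. This figure does not take in the spread between libraries. Replicate 3 was again the lowest of the CBLB502 libraries, and the gene was called in all 6 fits that leave out 1 library. Irradiated groups at 24 h had mean levels from 1.59 CPM (15 Gy alone) to 7.41 CPM (CBLB502 with 15 Gy).

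Cytochrome P450 enzymes oxidise drugs, steroids and fatty acids, and of 32 tested genes 6 fell and 1 rose, with a median log2 fold change of -0.68. Cyp3a25, a drug- and steroid-oxidising enzyme, had 128, 87.1 and 93.4 CPM with CBLB502, against 388, 751 and 656 CPM in control (log2 fold change -2.54 ± 0.41 SE, adjusted p = 0.00126). Cyp2c55, an arachidonic acid-oxidising enzyme, had 11.6, 11.4 and 4.80 CPM with CBLB502, against 72.5, 132 and 114 CPM in control (log2 fold change -3.52 ± 0.77 SE, adjusted p = 0.0112). Both groups were clearly apart for these genes, which were called in all 6 fits that leave out 1 library. Cyp4v3 (log2 fold change -1.27 ± 0.21 SE, adjusted p = 0.00155), Cyp2c68 (log2 fold change -1.03 ± 0.19 SE, adjusted p = 0.0031), Cyp2u1 (log2 fold change -2.54 ± 0.66 SE, adjusted p = 0.0281) and Cyp27a1 (log2 fold change -1.28 ± 0.34 SE, adjusted p = 0.0316) fell as well, and Cyp4b1 rose slightly (log2 fold change 0.51 ± 0.15 SE, adjusted p = 0.0459). Cyp3a11, the main intestinal drug oxidase, had 422, 972 and 579 CPM with CBLB502 and 1330.0, 2463 and 3117 CPM in control, without overlap, but was not called (log2 fold change -1.81 ± 0.68 SE, adjusted p = 0.122). Among 27 tested phase II genes 3 fell and 0 rose, the carboxylesterases Ces2a (log2 fold change -2.34 ± 0.61 SE, adjusted p = 0.0276) and Ces2e (log2 fold change -0.83 ± 0.13 SE, adjusted p = 0.00106) and the glucuronosyltransferase Ugt2a3 (log2 fold change -1.02 ± 0.21 SE, adjusted p = 0.00708). Ces2e and Ugt2a3 were called in all 6 fits that leave out 1 library, Ces2a reached 0.116 without CBLB502 replicate 2, and Cyp4b1 reached 0.176 without it. Many of these genes are close copies, so reads may have been split among family members. Of the 6 lower P450 genes, 5, 4 and 5 were still called without CBLB502 replicate 1, 2 and 3, and 4, 5 and 5 without control replicate 1, 2 and 3.

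Digestive and uptake genes of the brush border were lower in part. Of 25 tested brush border genes 4 fell and 0 rose (median log2 fold change -0.36). Lct, the lactase gene, had 1463, 818 and 1611 CPM with CBLB502, against 2799, 3130.4 and 2364 CPM in control, and every CBLB502 library was lower. The peptidases Naaladl1 (log2 fold change -2.34 ± 0.58 SE, adjusted p = 0.023) and Ace (log2 fold change -0.89 ± 0.21 SE, adjusted p = 0.016) and the brush border myosin Myo1a (log2 fold change -0.46 ± 0.11 SE, adjusted p = 0.019) also fell, whereas sucrase-isomaltase Sis had 7878, 5762 and 3185 CPM with CBLB502 and 6389, 5564 and 5194 CPM in control, with full overlap (log2 fold change -0.03 ± 0.33 SE, adjusted p = 0.979). Of the 4 called genes, 1, 1 and 4 were still called without CBLB502 replicate 1, 2 and 3, and 1, 1 and 4 without control replicate 1, 2 and 3, with Lct called in all 6.

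Carriers bring sugars, amino acids and peptides across the enterocyte. Of 13 tested genes of sugar transport and fructose use 3 fell. Slc5a4b, a sodium-coupled sugar carrier, had 21.7, 9.35 and 22.1 CPM with CBLB502, against 168, 125 and 111 CPM in control (log2 fold change -2.93 ± 0.34 SE, adjusted p = 0.000105), with the groups far apart and the adjusted p at most 0.00121 with any 1 library left out. Slc5a9 (log2 fold change -0.61 ± 0.14 SE, adjusted p = 0.0139) and Slc5a11 (log2 fold change -0.52 ± 0.15 SE, adjusted p = 0.0417) fell too. Of 16 tested amino acid and peptide carriers 3 fell and 0 rose. Slc7a8, the basolateral exchanger of neutral amino acids, had 369.7, 319 and 381 CPM with CBLB502, against 929, 812 and 866 CPM in control (log2 fold change -1.29 ± 0.19 SE, adjusted p = 0.000646). Its partner Slc3a2 (log2 fold change -0.77 ± 0.18 SE, adjusted p = 0.0152) and the peptide carrier Slc15a1 (log2 fold change -1.28 ± 0.29 SE, adjusted p = 0.0144) fell with it. Replicates were close for Slc7a8, and it was called in all 6 fits that leave out 1 library. Of the 3 lower sugar genes, 2, 1 and 2 were still called without CBLB502 replicate 1, 2 and 3, and 1, 1 and 3 without control replicate 1, 2 and 3. Of the 3 lower amino acid and peptide carriers, 1, 1 and 3 were still called without those CBLB502 libraries and 1, 2 and 3 without those control libraries.

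Lipid uptake genes were mixed, with 3 of 25 tested genes lower and 1 higher. Fabp1, the cytosolic fatty acid carrier, had 4752, 4869 and 4823 CPM with CBLB502, against 2414, 3308 and 3715 CPM in control (log2 fold change 0.61 ± 0.17 SE, adjusted p = 0.0366). The fatty acid receptor Cd36 had 22.5, 49.5 and 35.3 CPM with CBLB502, against 69.5, 89.9 and 80.6 CPM in control (log2 fold change -1.16 ± 0.32 SE, adjusted p = 0.0371). Neither overlapped between groups. Dgat1, which makes triglyceride (log2 fold change -0.70 ± 0.20 SE, adjusted p = 0.0425), and Npc1l1 fell as well, and the chylomicron protein Apoa4 was not called (log2 fold change -0.00 ± 0.21 SE, adjusted p = 0.999). Of the 3 lower genes, 0, 1 and 1 were still called without CBLB502 replicate 1, 2 and 3, and 0, 0 and 1 without control replicate 1, 2 and 3, and Fabp1 reached 0.181 without control replicate 1.

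Enteroendocrine cells make the gut hormones and serotonin. Of 14 tested genes of these cells 5 rose and 0 fell, with a median log2 fold change of 0.87. Cpe, the peptidase that trims prohormones, had 23.7, 31.0 and 24.6 CPM with CBLB502, against 11.1, 8.08 and 5.58 CPM in control (log2 fold change 1.68 ± 0.23 SE, adjusted p = 0.000328). Tph1, which makes serotonin, had 14.5, 16.4 and 35.7 CPM with CBLB502, against 8.94, 9.92 and 7.68 CPM in control (log2 fold change 1.32 ± 0.29 SE, adjusted p = 0.0105). Ghrl, the ghrelin gene, had 11.7, 17.4 and 22.1 CPM with CBLB502, against 5.69, 7.04 and 4.49 CPM in control (log2 fold change 1.57 ± 0.34 SE, adjusted p = 0.0107). All 3 genes were higher in every CBLB502 library, Tph1 and Ghrl highest in replicate 3. The granule protein Chgb (log2 fold change 0.90 ± 0.21 SE, adjusted p = 0.018) and the incretin Gip (log2 fold change 0.81 ± 0.22 SE, adjusted p = 0.0353) rose, while Cck (log2 fold change 1.29 ± 0.45 SE, adjusted p = 0.0959) and Sct (log2 fold change 0.38 ± 0.27 SE, adjusted p = 0.438) were not called. Of the 5, 5, 5 and 2 were still called without CBLB502 replicate 1, 2 and 3, and 3, 5 and 4 without control replicate 1, 2 and 3. In a fit of the 6 compared libraries alone 0 of the 5 were called. With the proximal score as a covariate 1 of the 5 was called, Cpe. Ghrl and Gip are also among the 6 risen proximal genes and are part of that score, so the 2 lists are not independent.

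Few genes were called among markers of other epithelial cells, growth and stress. Paneth genes had mostly negative fold changes, in 29 of 30 tested genes and with a median log2 fold change of -1.69. Of the 30, 5 lay wholly below control and 1 wholly above, against 11.4% and 10.5% of all genes tested. Both edgeR and DESeq2 called 0 of the 30, and 3 had an unadjusted p under 0.05. The Paneth list summed to 78.0 to 146 CPM with CBLB502 and 144 to 268 CPM in control, a narrow overlap, and its defensins are close copies that may share reads. The 7 Paneth markers of the tissue check summed to 63.5 to 107 CPM with CBLB502 and 119.5 to 162 CPM in control, without overlap. All 11 tested tuft genes had a positive fold change (median log2 fold change 0.53), of which edgeR called 0 and DESeq2 1, with 3 at an unadjusted p under 0.05. The tuft list summed to 80.3 to 171 CPM with CBLB502 and 80.1 to 90.3 CPM in control, with overlap. Of 19 tested T cell genes 18 had a positive fold change (median log2 fold change 0.57), of which edgeR and DESeq2 called 0, and 4 had an unadjusted p under 0.05. The T cell list summed to 416 to 1364 CPM with CBLB502 and 382 to 815 CPM in control, again with overlap. Of 13 goblet genes, with a median log2 fold change of -0.08, edgeR called 0 and DESeq2 2, and 2 had an unadjusted p under 0.05. Of 8 tested mitosis genes 0 were called and 0 had an unadjusted p under 0.05, and Mki67 had 10.7, 5.40 and 5.27 CPM with CBLB502 and 5.58, 3.08 and 9.06 CPM in control. Of 25 p53 targets 0 rose and 1 fell, the adhesion gene Perp (log2 fold change -0.62 ± 0.17 SE, adjusted p = 0.0341), while Cdkn1a, the p53-induced cell cycle inhibitor, had 349.7, 394 and 549.6 CPM with CBLB502 and 407, 406 and 425 CPM in control, with overlap (log2 fold change 0.06 ± 0.18 SE, adjusted p = 0.886). Perp was over 0.05 in 5 of the 6 fits that leave out 1 library, up to 0.193 without control replicate 1. Of 21 tested apoptosis genes edgeR called 0 and DESeq2 called 1 lower, with 3 at an unadjusted p under 0.05.

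Further genes were among the 15 largest rises and falls. Slc19a3, the thiamine carrier, had 75.9, 81.7 and 39.1 CPM with CBLB502, against 10.8, 8.02 and 15.98 CPM in control (log2 fold change 2.50 ± 0.51 SE, adjusted p = 0.00702), with no overlap. Tns4, a focal adhesion protein, had 19.4, 20.5 and 25.9 CPM with CBLB502, against 249, 211 and 68.6 CPM in control (log2 fold change -3.01 ± 0.47 SE, adjusted p = 0.00107). Plbd1, a phospholipase-like protein, had 18.6, 11.9 and 14.8 CPM with CBLB502, against 149.5, 129 and 57.3 CPM in control (log2 fold change -2.89 ± 0.36 SE, adjusted p = 0.000125). These were called in all 6 fits that leave out 1 library, and the CBLB502 libraries were close to each other for Tns4 and Plbd1. The actin gene Acta1 had 30.7, 10.7 and 191 CPM with CBLB502, against 5.74, 8.02 and 5.92 CPM in control, so its rise (log2 fold change 3.56 ± 0.83 SE, adjusted p = 0.0164) was carried by replicate 3, without which its adjusted p was 0.138. It was also above 0.05 without control replicate 1 (0.0826) or 2 (0.0538). The other rises were Opn3 (log2 fold change 4.15 ± 0.98 SE, adjusted p = 0.0169), Papss2 (log2 fold change 2.67 ± 0.71 SE, adjusted p = 0.0316), Nadk2 (log2 fold change 2.38 ± 0.70 SE, adjusted p = 0.047), Capg (log2 fold change 2.30 ± 0.61 SE, adjusted p = 0.0324) and Chrm4 (log2 fold change 2.23 ± 0.59 SE, adjusted p = 0.0308). Other falls were those of Aqp1 (log2 fold change -2.54 ± 0.56 SE, adjusted p = 0.0118) and Lama3 (log2 fold change -2.46 ± 0.59 SE, adjusted p = 0.0178). Each of these lost its call without CBLB502 replicate 2, at an adjusted p of 0.0614, 0.147, 0.231, 0.202, 0.108, 0.0555 and 0.0933, and all but Aqp1 lost it without control replicate 1 and without control replicate 2 as well, at 0.0579 to 0.176 and 0.0654 to 0.15. Papss2, Nadk2, Chrm4, Aqp1 and Lama3 also lost it without CBLB502 replicate 1 (0.0559 to 0.0772), and Capg and Chrm4 without control replicate 3 (0.0603 and 0.0681).

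The same agent was also given with radiation in mice of the same strain, sex and age range, as 0.2 mg/kg CBLB502 with 15 Gy or 6 Gy of cobalt-60 gamma rays, sampled at 24 h and set against 15 Gy or 6 Gy alone at 24 h, with 3 libraries each. The design text places the injection 0.5 h before 15 Gy. These comparisons share no library with CBLB502 alone against control. By edgeR 0 of 11118 genes (0%) were called with 15 Gy and 0 (0%) with 6 Gy, with 867 and 303 genes at an unadjusted p under 0.05. DESeq2 called 63 and 7. Of the 276 genes that rose with CBLB502 alone, 80.8% had a positive fold change with 15 Gy and 61.6% with 6 Gy, against 50.5% and 53.8% of all genes tested. Of the 362 that fell, 27.6% and 36.5% had a positive fold change.

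The difference between the effect of CBLB502 with radiation and its effect alone was tested directly. It was called for 25 genes (0.225%) with 15 Gy, 17 positive (0.153%) and 8 negative (0.072%), and for 36 genes (0.324%) with 6 Gy, 27 positive (0.243%) and 9 negative (0.0809%). Single libraries decided these counts: with 15 Gy the count was 7 to 48, lowest without CBLB502 with 15 Gy replicate 3, and with 6 Gy it was 0 without CBLB502 with 6 Gy replicate 3, 1 without CBLB502 replicate 1, 2 without 6 Gy replicate 1 and up to 82. Without CBLB502 with 6 Gy replicate 3, 954 genes had an unadjusted p under 0.05. For Fut2, the difference (effect with 15 Gy minus effect alone, log2) was -5.48 ± 0.66 (SE, adjusted p = 0.000549) and with 6 Gy -4.31 ± 0.66 (adjusted p = 0.0169). It was called in all 12 fits that leave out 1 library with 15 Gy and in 11 of 12 with 6 Gy, where its adjusted p was 0.0672 without CBLB502 with 6 Gy replicate 3. Fut2 had 1.51, 0.839 and 1.38 CPM with CBLB502 and 15 Gy, against 3.41, 1.59 and 1.74 CPM with 15 Gy alone, and 0.590, 1.70 and 1.34 CPM with CBLB502 and 6 Gy, against 0.795, 0.862 and 1.26 CPM with 6 Gy alone. All 12 irradiated libraries taken at 24 h were thus near the untreated level of Fut2 and far below CBLB502 alone. Marker genes of other tissues differed between these groups as well. A mean log2 score over 25 exocrine pancreas genes was 4.829 with 6 Gy alone and 6.194 with CBLB502 and 6 Gy. It was -2.194 in control, -2.248 with CBLB502 alone, -0.396 with 15 Gy alone and -1.610 with CBLB502 and 15 Gy. The 25 genes had passed the filter of FPKM of at least 1 in 3 or more of the 27 libraries. A gene could pass only through the groups where it is high, so the score is not independent of those groups. Of the 28 genes of this list, 16 had no count with CBLB502 alone and 18 none in control. The part of tissue make-up in these levels and differences was not tested. Reg3g had 1192, 2262 and 1487 CPM with CBLB502 and 15 Gy, against 5620.5, 1424 and 3379 CPM with 15 Gy alone, and 2203, 1980.2 and 1607 CPM with CBLB502 and 6 Gy, against 948, 1056 and 533 CPM with 6 Gy alone. Its difference was not called with 15 Gy (-2.81 ± 0.65, adjusted p = 0.0784) or 6 Gy (-0.54 ± 0.64, adjusted p = 0.804). The effect alone is part of each difference, so a gene chosen for a large effect alone is more likely to be called here.

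**Figure D4:**
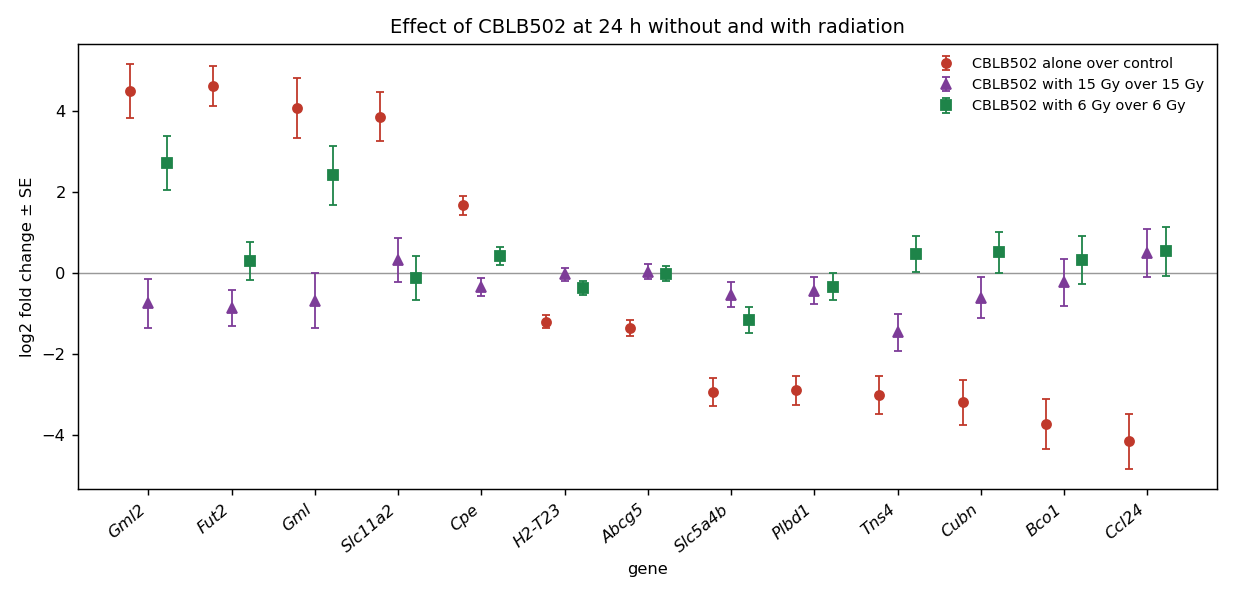
Log2 fold change ± SE of CBLB502 alone over control (circles), CBLB502 with 15 Gy over 15 Gy alone (triangles) and CBLB502 with 6 Gy over 6 Gy alone (squares), at 24 h, for 13 genes. Fut2 is at 4.62 with CBLB502 alone, -0.86 with 15 Gy and 0.31 with 6 Gy, and Ccl24 is at -4.15, 0.50 and 0.54.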

How the data were processed

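Counts per gene and library were deposited by the authors as whole numbers, beside FPKM values (fragments per kilobase of gene, scaled to library size, used here to filter low genes). The submitters' processing notes name Bowtie 0.12.2, HISAT2 2.0, StringTie 1.3.0 and the build mm8, while 94.2% of 55141 matched genes had the start and end of GRCm38, so positions are on GRCm38. Read assignment and strand are not given in the sources used. Genes were tested where FPKM reached 1 in 3 or more of the 27 libraries, with edgeR 4.0.16 in R 4.3.3 (TMM, quasi-likelihood F test, all libraries in 1 fit, Benjamini-Hochberg adjustment over 11118 genes, SE from the fold change and F). The common dispersion was a biological coefficient of variation of 31.0%. Alternatives were DESeq2 1.42.0, limma 3.58.1 on log2(FPKM + 1) and log2(FPKM + 0.1) of the deposited values, other filters and scalings, a replicate block, fewer libraries and each library left out.

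The 15 largest called rises and falls without overlap, with FPKM of at least 5 in the higher group, were named, with the called members of gene lists and up to 4 others of each. Genes and lists were chosen with earlier results of these data known. Some results that the rule would name are not reported here.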

Additional observations from a re-analysis of the deposited data

Results flagged for a closer look

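The genes listed here are among the 104 called genes followed singly in this report. Their response to CBLB502 differed between irradiated and unirradiated mice by edgeR's test of the difference (effect with radiation minus effect alone, log2). They are not the full set, which was 25 genes with 15 Gy and 36 with 6 Gy. Genes left out with 15 Gy include Trub2 (adjusted p = 0.00128), Agmo (0.00966), Lyve1 (0.0118) and Pros1 (0.0157). Those left out with 6 Gy include Mapre2 and Pdlim1 (both 0.0169). None of the listed genes was called in the radiation comparison itself. The 6 Gy libraries also differed in marker genes of other tissues, and the part of this was not tested. With 15 Gy the difference was negative for Fut2 (-5.48), Gml2 (-5.24), Gml (-4.76) and Cpe (-2.02), which had risen with CBLB502 alone. It was positive for Ccl24 (4.65), the cyclin gene Ccne2 (2.52), Plbd1 (2.46), Slc5a4b (2.40), Lgals3bp (2.28), Abcg5 (1.40), H2-T23 (1.17) and Ctss (0.97), which had fallen. With 6 Gy it was negative for Fut2 (-4.31), Slc11a2 (-3.97) and Nr0b2 (-11.58, a size that depends on the prior count because control had no count). It was positive for Ccl24 (4.69), Bco1 (4.05), Cubn (3.71), Tns4 (3.48), Abca1 (2.87), Plbd1 (2.56), Oat (1.91), Abcg5 (1.35) and Slc7a8 (1.34). Mean levels with 6 Gy alone were below control for each of these but Oat (177 against 142 CPM). Tns4 had 23.2 CPM with 6 Gy alone, 21.9 with CBLB502 alone and 176 in control, and Abca1 had 27.2, 39.0 and 166. Abcg5 had 350, 198 and 507, and Nr0b2 had 3.78, 5.68 and 0. The part of these starting levels in the differences was not tested.

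Most calls of the listed genes did not hold with 1 library left out, in 12 fits for each dose. With 15 Gy, Fut2 and Cpe were called in all 12, Gml2 in 10, Ccl24 in 8, Slc5a4b in 7, Abcg5 and Plbd1 in 4, H2-T23, Ctss and Lgals3bp in 3, Gml in 2 and Ccne2 in 1. With 6 Gy, Fut2 was called in 11, Oat in 7, Ccl24 in 6, Tns4 in 5, Abca1, Abcg5, Cubn, Nr0b2, Plbd1 and Slc7a8 in 4, and Bco1 and Slc11a2 in 3. Without CBLB502 with 6 Gy replicate 3 none of the 6 Gy differences was called, and their adjusted p in the fits reached 0.0672 for Fut2 and 0.133 for Bco1.

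Gml2 had 1.94, 1.88 and 0.752 CPM with CBLB502 and 15 Gy, against 3.01, 0.990 and 3.67 CPM with 15 Gy alone, and its adjusted p for the difference was 0.0118. With 6 Gy it had 3.08, 2.28 and 1.87 CPM with CBLB502, against 0.579, 0 and 0.521 CPM without, so the groups did not overlap there, and the difference from the effect alone was not called (adjusted p = 0.459). Ccl24 had 8.69, 6.12 and 14.0 CPM with CBLB502 and 15 Gy, against 6.32, 10.8 and 3.12 CPM with 15 Gy alone, with overlap.

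Abcg5 had 634, 499.7 and 438 CPM with CBLB502 and 15 Gy, against 503, 567 and 458 CPM with 15 Gy alone, and it had 309, 352 and 382 CPM with CBLB502 and 6 Gy, against 251, 455 and 346 CPM with 6 Gy alone. The groups overlapped at both doses. Bco1 had 0.611, 2.23 and 1.16 CPM with CBLB502 and 6 Gy, against 1.35, 0.959 and 0.877 CPM with 6 Gy alone, compared with a mean of 42.4 CPM in control. With 6 Gy the groups with and without CBLB502 overlapped.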

How the results depend on the processing

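The 638 calls (276 higher, 362 lower) became 350 (144, 206) with no filter on low values, 349 (102 higher) with limma on log2(FPKM + 1), 391 (121 higher) on log2(FPKM + 0.1), 412 (163 higher) without the 6 libraries of 6 Gy at 24 h, 56 (14, 42) in the 6 compared libraries alone, 1134 (530, 604) with DESeq2 and 80 (26, 54) with the proximal score as a covariate, added after seeing the data. Leaving out 1 library gave 176 to 779 calls (61 to 388 higher, 115 to 448 lower). With the proximal covariate the fitted change turned to -0.050 for Slc40a1, -0.26 for Fth1 and -0.0084 for Capg. Of 104 called genes followed singly, none turned in any other alternative; DESeq2 called all 104, the replicate block 89, limma on log2(FPKM + 1) 77, the 6 libraries alone 22 and the proximal covariate 20. Fut2, Gml2, Nr0b2, Slc5a4b, Plbd1, H2-T23, Cyp3a25 and Cyp2c55 were called in every alternative that tested them.

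Replicate numbers did not pair the libraries (correlation of same-numbered deviations 0.012, 0.059 and -0.039). With a replicate block 545 genes were called, the CBLB502 effect with 6 Gy had 1 call (1 lower), and the difference with 6 Gy had 21 (16 higher, 5 lower) in place of 36 (27, 9). With no filter this difference had 21 (17, 4) and the effect with 15 Gy had 1 (1 higher). DESeq2 called 63 (10, 53) with 15 Gy and 7 (1, 6) with 6 Gy, and differences of 128 (88, 40) and 158 (78, 80). Leaving out 1 library gave 0 to 93 calls (0 to 49 higher, 0 to 44 lower) for the effect with 15 Gy, 0 to 2 (0 to 2, 0 to 1) with 6 Gy, and differences of 7 to 48 (3 to 34, 3 to 15) with 15 Gy and 0 to 82 (0 to 52, 0 to 30) with 6 Gy. The causes were not tested. Genes without a called change may have moved by less than 3 libraries a group can show.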

Other observations

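Some genes of arginine, retinoid and fat oxidation metabolism also differed between CBLB502 and control. Over all genes tested 2.48% rose and 3.26% fell. The median log2 fold changes of the 3 lists were -0.07, -0.10 and 0.21. In a fit of the 6 compared libraries alone Otc, Isx, Dhrs3, Acadl and Hadha were not called. Of 10 tested genes of arginine and citrulline metabolism 2 fell and 0 rose. Oat, which links ornithine to proline and glutamate, had 45.7, 41.4 and 65.3 CPM with CBLB502, against 143, 132 and 149.9 CPM in control (log2 fold change -1.48 ± 0.25 SE, adjusted p = 0.00224). Otc, which makes citrulline from ornithine, had 57.8, 52.2 and 41.0 CPM with CBLB502, against 82.2, 75.3 and 94.7 CPM in control (log2 fold change -0.74 ± 0.16 SE, adjusted p = 0.00942). Both were lower in every CBLB502 library and were called in all 6 fits that leave out 1 library.

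Among 13 tested retinoid genes, Isx, the retinoic acid-induced repressor of Bco1, rose to 85.9, 107 and 81.6 CPM with CBLB502, against 40.8, 44.5 and 69.6 CPM in control (log2 fold change 0.83 ± 0.17 SE, adjusted p = 0.00786), and Bco1 fell. Dhrs3, a retinal reductase, fell (log2 fold change -0.99 ± 0.24 SE, adjusted p = 0.019). Of 24 tested genes of fat oxidation 2 rose and 0 fell, Acadl at 147, 261 and 179 CPM with CBLB502, against 44.6, 47.5 and 108 CPM in control (log2 fold change 1.55 ± 0.37 SE, adjusted p = 0.018), and Hadha (log2 fold change 0.52 ± 0.11 SE, adjusted p = 0.00823). No group overlapped for these genes. Isx, Dhrs3, Acadl and Hadha all lost the call without CBLB502 replicate 2 (Isx 0.0541, Dhrs3 0.0845, Acadl 0.0944, Hadha 0.0541) and without control replicate 1 (0.0569, 0.0643, 0.104 and 0.0511). Dhrs3 also lost it without CBLB502 replicate 1 (0.0763) or control replicate 3 (0.0539), and Acadl without control replicate 2 (0.0823).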
